A study of Mus musculus with 24 samples.

Results

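The KLF transcription factors Klf2, Klf3, Klf4, Klf6, Klf7, Klf10 and Klf13 were followed in CD4+ T cells from WT mice and from mice lacking BAF180 (KO). They were taken as all probes of the array that carry these symbols, which gave 7 probes of 5 genes. Klf6 and Klf10 were listed under the older symbols Copeb and Tieg1 and were matched by RefSeq accession, which added 3 probes, so that 10 of the 25697 probes and 7 of the 17871 genes of the array were members. Each of the 10 probes was detected on at least 1 array and was tested. BAF180, encoded by Pbrm1, is a subunit of the PBAF chromatin remodelling complex, and the study asked how its loss changes CD4+ T cells.

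RNA was hybridized to 24 arrays (Illumina MouseRef-8 v2), with 3 arrays per genotype, replicates A, B and C, in each of 4 states. Resting Naïve cells were CD4+ cells of Naïve surface phenotype purified from spleen and lymph nodes of mice aged 4 to 6 weeks, which the labels give as Balb/c and the study's methods as mice of mixed genetic background, at a labelled purity of 95%. Stimulated Naïve cells had been kept for 24 h on anti-CD3 (1 µg/ml) and anti-CD28 (2 µg/ml). Resting Th2 cells were grown from Naïve cells on the same antibodies with IL-4 (10 ng/ml) and anti-IFN-gamma (10 µg/ml), followed by IL-2 (100 U/ml), and stimulated Th2 cells were resting Th2 cells given PMA (50 ng/ml) and ionomycin (500 ng/ml) for 1.5 h. KO mice carried floxed Pbrm1 alleles removed by Cre under the CD4 promoter, which acts in the thymus, so that the gene is lost in T cells and not in other cells of the animal.

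KLF proteins bind GC-rich and CACCC sequences through 3 zinc fingers at the C-terminus, and differ in the rest of the protein, which activates or represses. KLF2 is known in T cells as a factor of quiescence that maintains the genes for exit from and return to lymph nodes, and antigen receptor signalling shuts it off. KLF4 and KLF6 are also induced early by stress in many cells, and KLF10 and KLF13 are known from TGF-beta signalling and from late transcription of Ccl5.

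Levels below are log2 intensities after background correction and quantile normalization, in which probes without signal lie near a floor of 4.2. Undetected probes can lie above it. A probe was called detected at a detection p of at most 0.02, and a difference was called at an adjusted p below 0.05 (limma, Benjamini-Hochberg over 14246 probes). The scale understates the change of dim probes, and levels were not compared between genes, since probes differ in brightness. Where a probe was detected on no array of a group, the fold is given as a lower bound.

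Sequences upstream of the genes are shown for Klf2, Klf3 and Klf7, which were lower in each state comparison of both genotypes whichever array was left out, and for Klf4, which was detected in 1 state. These are the 250 bases before a RefSeq transcript start (GRCm38.p6), written 5′ to 3′ on the strand of the gene. For Klf7 the stretch lies inside the span RefSeq gives for the gene, downstream of its outermost start. Capitals mark CACCC, the KLF box, and GGGCGG, the GC box, on either strand.
Klf2, chr8:72318812-72319061, + strand: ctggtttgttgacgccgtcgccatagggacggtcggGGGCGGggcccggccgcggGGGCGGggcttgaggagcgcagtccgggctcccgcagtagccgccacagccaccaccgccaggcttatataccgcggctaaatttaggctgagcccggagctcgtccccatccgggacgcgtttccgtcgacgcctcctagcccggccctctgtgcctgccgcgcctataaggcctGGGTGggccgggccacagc
Klf3, chr5:64803271-64803520, + strand: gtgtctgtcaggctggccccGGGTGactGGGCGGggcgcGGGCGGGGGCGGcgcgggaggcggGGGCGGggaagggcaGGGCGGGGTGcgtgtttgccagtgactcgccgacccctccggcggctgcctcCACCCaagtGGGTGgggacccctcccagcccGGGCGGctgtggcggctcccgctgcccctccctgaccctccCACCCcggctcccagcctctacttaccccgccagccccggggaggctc
Klf7, chr1:64121390-64121639, - strand: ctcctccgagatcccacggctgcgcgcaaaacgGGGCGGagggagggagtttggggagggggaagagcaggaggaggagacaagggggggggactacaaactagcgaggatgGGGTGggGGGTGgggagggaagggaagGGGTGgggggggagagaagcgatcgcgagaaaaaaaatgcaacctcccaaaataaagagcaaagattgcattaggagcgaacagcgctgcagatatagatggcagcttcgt
Klf4, chr4:55532476-55532725, - strand: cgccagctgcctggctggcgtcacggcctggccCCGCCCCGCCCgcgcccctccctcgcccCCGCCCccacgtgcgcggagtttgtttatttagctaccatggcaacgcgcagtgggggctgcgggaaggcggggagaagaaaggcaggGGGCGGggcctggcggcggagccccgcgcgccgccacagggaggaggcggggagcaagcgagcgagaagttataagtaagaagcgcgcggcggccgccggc
CACCC or its complement was found in 4 of the 6 upstream sequences that were matched (Klf2, Klf3, Klf7 and Klf13), compared with 52% of the 32851 upstream sequences of the same length. GGGCGG was found in 6 of 6, compared with 32.7% of all. Klf3 held the most, with 6 matches of GGGCGG and 5 of CACCC, 1 pair of which shares bases. TGACTCA, which AP-1 binds, TGACGTCA, which CREB binds, and GTAAACA, which forkhead factors bind, were searched in the same way. These were found in none of the 6 sequences, and in 4.46%, 1.55% and 3.17% of all. Matches are letters only and show no binding.

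Klf2, Klf3, Klf6, Klf7 and Klf13 had their highest mean level in resting Naïve cells of both genotypes. The share of all genes with their highest level there was not counted. Each called difference of a KLF probe with stimulation or Th2 culture was a decrease. The 3 Klf4 probes were tested through resting Naïve cells alone, so that a lower level elsewhere was fixed by the filter, and they are left out of these counts. With stimulation of Naïve cells 6 of the 7 other probes were lower in WT and 6 were lower in KO cells, while 20% of all probes were lower in WT and 19.3% in KO cells. With Th2 culture (resting Th2 against resting Naïve) the count was 6 in WT and 6 in KO cells, against 16% and 15.9% of all probes. With stimulation of Th2 cells it was 5 in WT and 5 in KO cells, against 14.3% and 13.8%. Naïve stimulation and Th2 culture share the resting Naïve arrays, so these counts are not independent of each other, whereas WT and KO were measured on separate arrays.

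**Figure D1:**
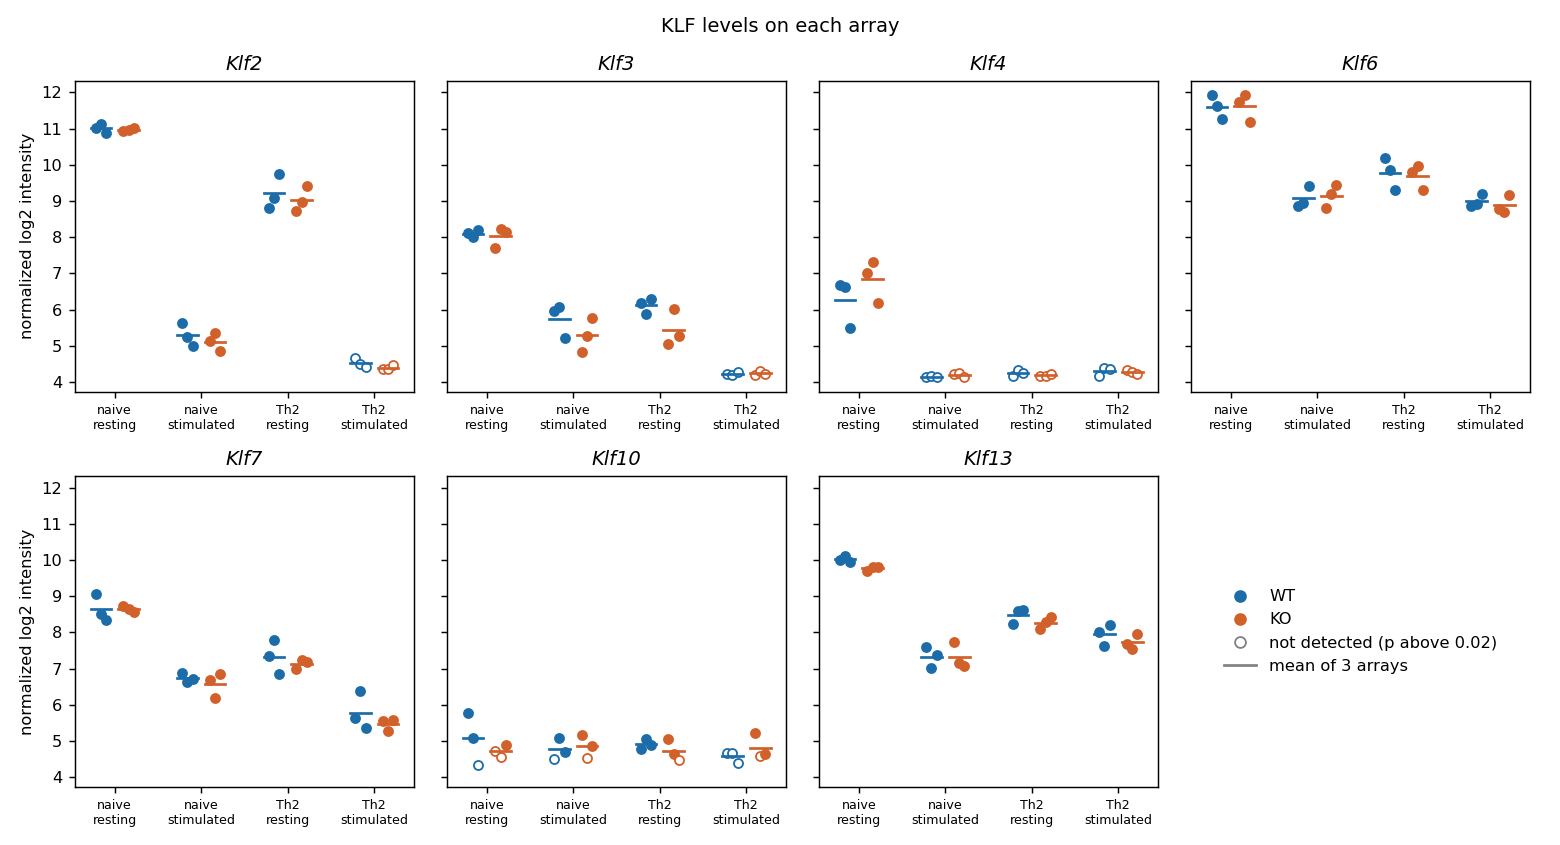
Normalized log2 intensity (y axis) of the brightest probe of each KLF gene on the 24 arrays, by cell state (x axis) and genotype (WT blue, KO orange). Each point is an array, lines are means of 3 arrays and open points are arrays on which the probe was not detected. Klf2 falls from about 11 to the floor, Klf4 is above the floor in resting Naïve cells alone, and WT and KO points lie together.

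Klf2 (chromosome 8, 72319062 to 72321654) was lower in each of the 3 comparisons. On the WT arrays of Naïve cells its level was 11.00, 11.12 and 10.88 at rest and 5.63, 5.25 and 4.99 after stimulation, and on those of Th2 cells it was 8.81, 9.08 and 9.75 at rest and 4.68, 4.51 and 4.43 after stimulation. On the KO arrays it was 10.92, 10.96 and 11.01, then 5.12, 5.34 and 4.86, then 8.71, 8.98 and 9.43, and then 4.37, 4.35 and 4.48. No state overlapped another in either genotype, and in stimulated Th2 cells Klf2 was detected on none of the 6 arrays. Stimulation of Naïve cells lowered Klf2 by 52.5-fold in WT (log2 difference -5.71, SE 0.21, limma adjusted p = 2.64e-14) and by 58.0-fold in KO cells (-5.86, adjusted p = 2.09e-14). Stimulation of Th2 cells lowered it at least 23.5-fold in WT and at least 20.8-fold in KO cells (adjusted p = 2.44e-12 and 3.59e-12) within 1.5 h. Th2 culture itself lowered it less, by 3.46-fold in WT and 3.80-fold in KO cells. The order in WT was resting Naïve, resting Th2, stimulated Naïve and stimulated Th2, and each neighbour in that order differed (adjusted p of at most 0.0128).

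Klf3 encodes a repressor that recruits the corepressor CtBP. It lies on chromosome 5 (64803521 to 64832901). Its WT levels were 8.12, 8.0 and 8.19 in resting Naïve, 5.98, 6.07 and 5.21 in stimulated Naïve, 6.19, 5.87 and 6.29 in resting Th2, and 4.21, 4.20 and 4.28 in stimulated Th2 cells. Its KO levels were 7.72, 8.23 and 8.14, then 4.84, 5.26 and 5.78, then 5.05, 6.01 and 5.28, and then 4.20, 4.32 and 4.23. Resting Naïve arrays stood above all others, and the stimulated Th2 arrays were all undetected. Klf3 fell by 2.35 on the log2 scale with stimulation of WT Naïve cells (SE 0.25, limma adjusted p = 1.72e-07) and changed by -2.73 in KO cells. With stimulation of Th2 cells it was at least 2.74-fold lower in WT (adjusted p = 6.79e-06) and at least 1.72-fold lower in KO cells (adjusted p = 0.00101). Stimulated Naïve and resting Th2 cells, neighbours in the WT order, did not pass the test (difference 0.37, adjusted p = 0.357).

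Klf7 (chromosome 1, 64029448 to 64122345) is an activator that is best known from neurons and adipose tissue. Its WT levels were 9.05, 8.52 and 8.36 in resting Naïve, 6.88, 6.63 and 6.71 in stimulated Naïve, 7.34, 7.78 and 6.87 in resting Th2, and 5.65, 6.37 and 5.35 in stimulated Th2 cells. KO levels ran from 8.57 to 8.74, from 6.20 to 6.87, from 6.99 to 7.23 and from 5.28 to 5.57 in the same order of states. The probe was detected on all 24 arrays, so that these decreases were measured above background throughout. Klf7 fell by 1.90 on the log2 scale with stimulation of WT Naïve cells (SE 0.24, limma adjusted p = 2.23e-06), with a difference of -1.31 with Th2 culture (adjusted p = 0.000282) and of -1.54 with stimulation of Th2 cells (adjusted p = 5.77e-05). In KO cells these differences were -2.07, -1.52 and -1.67. Resting Th2 and stimulated Naïve cells of WT did not pass the test against each other (0.59, adjusted p = 0.0951).

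Klf13 (chromosome 7, 63886351 to 63938915), an activator of Ccl5 in late T cell activation, had its lowest WT levels in stimulated Naïve cells and not in stimulated Th2 cells. WT levels were 10.00, 10.11 and 9.95 in resting Naïve, 7.60, 7.03 and 7.37 in stimulated Naïve, 8.24, 8.61 and 8.62 in resting Th2, and 8.01, 7.64 and 8.21 in stimulated Th2 cells. KO levels were 9.71, 9.81 and 9.82, then 7.73, 7.16 and 7.06, then 8.09, 8.29 and 8.44, and then 7.69, 7.56 and 7.95. Klf13 fell by 2.69 on the log2 scale with stimulation of WT Naïve cells (SE 0.19, limma adjusted p = 5.03e-10), and its difference with Th2 culture was -1.53 (adjusted p = 1.94e-06). With stimulation of Th2 cells the difference was -0.54 in both genotypes (adjusted p = 0.0360 in WT and 0.0367 in KO). That call was lost in WT without resting Th2 replicate B or C or stimulated Th2 replicate A or B (-0.38 to -0.56), and in KO cells without the arrays of the same letters (-0.45 to -0.53). Ccl5, its named target, was not ordered as Klf13, with WT means of 8.39 in resting Naïve, 5.99 in stimulated Naïve, 6.61 in resting Th2 and 9.30 in stimulated Th2 cells.

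Klf6 (chromosome 13, 5861489 to 5870393), an activator induced by injury and stress, was measured by a bright probe that was detected on 24 arrays and a dim one detected on 22. On the bright probe WT levels were 11.92, 11.62 and 11.27 in resting Naïve, 8.87, 8.93 and 9.42 in stimulated Naïve, 10.19, 9.86 and 9.29 in resting Th2, and 8.87, 8.91 and 9.19 in stimulated Th2 cells. KO levels ran from 11.19 to 11.92, from 8.80 to 9.46, from 9.30 to 9.98 and from 8.71 to 9.17. Replicate C was the lowest of 3 in resting cells and the highest of 3 in stimulated cells, in both genotypes and kinds. Klf6 fell by 2.53 on the log2 scale with stimulation of WT Naïve cells (SE 0.25, limma adjusted p = 8.33e-08), and its difference with Th2 culture was -1.82 (adjusted p = 1.10e-05). The dim probe fell as well (-1.52 and -0.89). The probes disagreed on stimulation of Th2 cells: the bright probe gave -0.79 in WT and -0.80 in KO cells (adjusted p = 0.0226 and 0.0225), the dim probe 0.07 and -0.02, and their mean -0.36 and -0.41 (adjusted p = 0.318 and 0.239). The call on the bright probe was also lost without WT resting Th2 replicate A or B or stimulated replicate A or B (-0.59 to -0.75), and without the KO arrays of the same letters (-0.66 to -0.75). Stimulated Naïve and stimulated Th2 cells of WT did not pass the test against each other (-0.08, adjusted p = 0.902).

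Klf4 (chromosome 4, 55527137 to 55532475), a factor of growth arrest in T cells and of monocyte differentiation, was detected in resting Naïve cells and on none of the 18 other arrays, by each of its 3 probes. The 2 probes nearest to each other share 17 bases, in capitals here, so that they are not independent measurements.
Klf4 probe 2650092: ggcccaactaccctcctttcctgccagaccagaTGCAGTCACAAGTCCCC
Klf4 probe 1170750: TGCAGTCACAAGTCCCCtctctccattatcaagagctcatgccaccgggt
On the brightest probe (1170750) the level in resting Naïve cells was 6.68, 6.63 and 5.49 in WT and 7.02, 7.33 and 6.19 in KO cells. In the other states it lay between 4.13 and 4.39. On probe 1740594 the resting Naïve levels were 7.04, 6.45 and 4.93 in WT and 6.57, 6.51 and 5.29 in KO cells, and replicate C was the lowest on every probe and in both genotypes. Klf4 was at least 3.06-fold lower in stimulated than in resting Naïve WT cells and at least 4.64-fold lower in KO cells. Against resting Th2 cells the bounds were 3.17-fold and 4.82-fold. The Klf4 probes passed the filter through resting Naïve cells alone. The direction of these differences was thereby fixed, and no p-value is given for them. No order of the 3 states without detected Klf4 can be given.

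Klf10 (chromosome 15, 38291464 to 38300711), a gene induced early by TGF-beta, was the exception. Its probe was detected on 14 of 24 arrays and its level lay between 4.35 and 5.78. In WT it was 5.78, 5.10 and 4.35 in resting Naïve, 4.52, 5.09 and 4.71 in stimulated Naïve, 4.79, 5.05 and 4.89 in resting Th2, and 4.68, 4.67 and 4.39 in stimulated Th2 cells. The states overlapped apart from resting and stimulated Th2 cells of WT, and no difference passed the test: the WT differences were -0.30 with stimulation of Naïve cells, -0.16 with Th2 culture and -0.33 with stimulation of Th2 cells (limma adjusted p = 0.388, 0.684 and 0.429). The resting Naïve replicates decided the first 2 values. Without replicate C they were -0.67 (adjusted p = 0.0308) and -0.53, and without replicate A 0.048 and 0.19. At this signal over background an undetectable change of Klf10 cannot be told from no change.

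**Figure D2:**
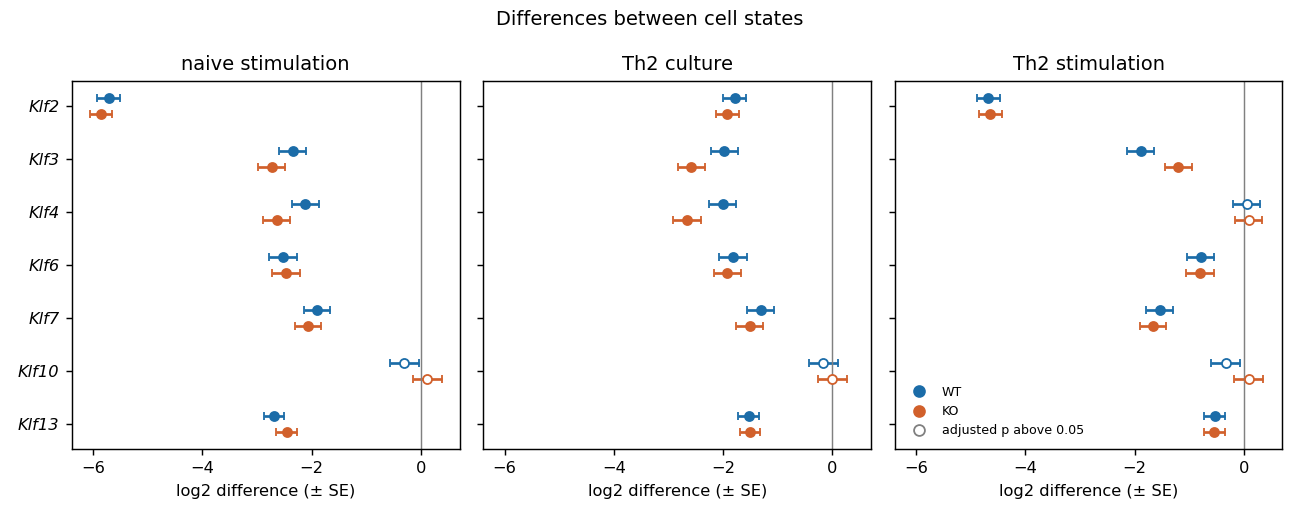
Log2 difference with its SE (x axis) of the brightest probe of each KLF gene with stimulation of Naïve cells, Th2 culture and stimulation of Th2 cells, in WT (blue) and KO cells (orange). Filled points passed an adjusted p of 0.05. Klf2 lies furthest left in both stimulations, and the points of Klf10 are open in every panel.

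The 2 stimulations differed for part of the genes. In WT cells the decrease was smaller with stimulation of Th2 cells than of Naïve cells for Klf13 and for both probes of Klf6, while 11.1% of all probes differed in that direction. The difference of the log2 differences was 1.74 (SE 0.36, limma adjusted p = 0.00106) for the bright probe of Klf6 and 1.59 (adjusted p = 0.00402) for the dim one, and 2.15 (adjusted p = 3.56e-06) for Klf13. Klf2 and Klf3 were undetected in stimulated Th2 cells and Klf4 in both Th2 states, so that their decreases in the 2 cell kinds cannot be ranked. The Klf3 value (0.46, adjusted p = 0.375) is thereby limited by the floor and shows no lack of a difference. Klf7, detected on all arrays, did not pass the test (0.36, adjusted p = 0.492). Stimulus, time and cell kind differ together between the 2 stimulations and cannot be told apart. The comparison also includes the resting Naïve arrays, which hold transcripts of other cell types. In it 7 of 7 tested myeloid markers (median 3.11) were called in the same direction as Klf6 and Klf13. So were 5 of 5 tested early response genes (median 4.92). Their part was not tested.

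Marker lists of other cell types, and the genes Fos, Fosb and Cd69, had higher levels in WT resting Naïve samples than in WT stimulated Naïve samples. Of the myeloid marker list, 7 of 7 tested genes were detected on all 3 arrays of both genotypes in resting Naïve cells. Their summed intensity was 2586 to 11086 in WT and 3790 to 6055 in KO resting Naïve samples, and at most 201 on the other 18 arrays, where Lyz2, Cd14 and Fcgr3 lay near the floor. In WT the mean log2 level of Lyz2 was 9.76 in resting Naïve, 4.23 in stimulated Naïve, 4.22 in resting Th2 and 4.16 in stimulated Th2 cells. The B cell list (5 genes) summed to 411 to 829 in WT resting Naïve and 99.5 to 357 in the other WT samples, and the NK cell list (2 genes) to 150 to 304 and 37.2 to 73.9. In KO cells the B cell sums were 400 to 1051 in resting Naïve and 143 to 472 in resting Th2 samples, which overlapped. The NK cell sums were 94.2 to 212 in KO resting Naïve and at most 48.6 in the other KO samples. Fos and Fosb, early response genes, were at 11.27 and 8.91 in WT resting Naïve cells, compared with 5.52 and 4.22 in stimulated Naïve cells. Cd69 was at 11.87 and 10.44 and Egr1 at 11.64 and 10.63. Egr2, the other gene of that list, was at 7.09 in resting and 9.32 in stimulated Naïve WT cells and rose. In bulk RNA, fewer cells of a type and less RNA per cell cannot be told apart.

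Apart from Egr2 with stimulation of Naïve cells, these values move with every KLF decrease that starts from resting Naïve cells. Their part in those decreases was not tested. Among the 6 resting Naïve arrays, the myeloid sum was highest in WT replicate C (11086), where Klf4 was lowest (5.49), Klf2 was 10.88, Klf3 8.19 and Klf13 9.95. It was lowest in WT replicate B (2586), with Klf4 at 6.63, Klf2 at 11.12, Klf3 at 8.0 and Klf13 at 10.11. The sum over 5 early response genes (Egr1, Egr2, Fos, Fosb and Cd69) was lowest in replicate C of each genotype, 7758 in WT and 7405 in KO, and 11088 to 12512 on the other 4 arrays. Klf4 and Klf6 were lowest in the same 2 samples, at 5.49 and 6.19, and at 11.27 and 11.19. In WT Th2 cells the myeloid sum was 139 to 180 before and 137 to 147 after stimulation, with at most 2 of 7 genes detected on any array in WT or KO.

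**Figure D3:**
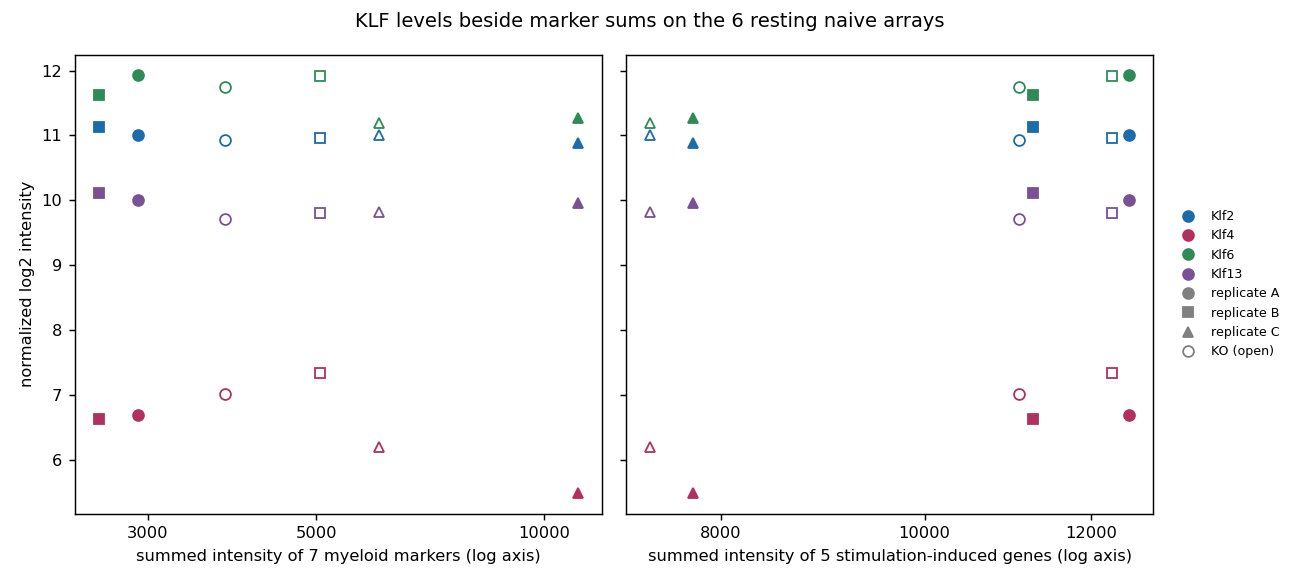
Normalized log2 intensity of Klf2, Klf4, Klf6 and Klf13 (y axis) on the 6 resting Naïve arrays against the summed intensity of 7 myeloid markers (left, log axis) and of 5 stimulation-induced genes (right, log axis). Filled points are WT and open points KO, and shapes are replicates. Klf2 and Klf13 stay nearly level, and Klf4 and Klf6 are lowest in replicate C (triangles).

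The labels were checked on other genes. Cd3d had a mean of at least 10.79 in every group, and Cd4 was dim, with group means from 4.91 to 5.65, but detected on all arrays. Of the 6 T cell markers 3 (Cd3e, Cd3g and Lck) fell with stimulation of WT Naïve cells, and the sum over the 6 was 9874 to 11369 at rest and 5045 to 6522 after stimulation. Il4, the defining Th2 cytokine, rose from 9.43 in resting to 14.02 in stimulated WT Th2 cells, and Gata3 from 9.60 to 10.74. Il5 (4.44 to 8.40) and Il13 (4.72 to 8.23) rose as well, and Il1rl1 stayed near the floor (4.26 and 4.57). In stimulated Naïve WT cells Il4 (9.64), Il5 (5.69) and Il13 (6.14) were above resting Th2 cells, and Gata3 (8.67) was below. The 3 cytokines therefore do not mark resting Th2 cells against stimulated Naïve cells. Cd8b1, a CD8 T cell gene, was detected in every group, with a mean of 8.57 in WT resting Naïve cells. The KO minus WT difference of Pbrm1 lay between -1.86 and -1.01 on the log2 scale, and passed the test in both kinds of stimulated cells and in resting Th2 cells but not in resting Naïve cells (limma adjusted p = 0.121).

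Genes linked to KLF2 for homing and survival were counted from a list of 7 genes, 6 of which were tested. In this and the following lists the counts of higher and lower genes can be set against all probes, of which 23.6% were higher and 20% lower with stimulation of WT Naïve cells, 18.4% and 16% with Th2 culture, and 13% and 14.3% with stimulation of WT Th2 cells. In KO cells these shares were 22.3% and 19.3%, 18.8% and 15.9%, and 12% and 13.8%. With stimulation of Naïve cells 5 of the 6 fell in WT (median log2 difference -1.45, all genes -0.01) and 6 of 6 in KO cells. Il7r, the receptor for the survival cytokine IL-7, fell by 3.51 in WT. Itgb7, a gut homing integrin, fell by 2.93. With stimulation of Th2 cells 4 fell and 1 rose in WT (median -1.10, all genes -0.01), and 4 fell and 1 rose in KO cells. S1pr4 (-2.07) and Bcl2 (-1.87) were among those that fell, and the gene that rose was Cxcr3, a receptor for inflamed tissue (1.77). With Th2 culture, when Klf2 was lower, 2 of the 6 rose and 2 fell in WT: Bcl2 (1.05) and S1pr4 (0.86) were higher, Ccr7 (-1.36) and Cxcr3 (-1.01) were lower, and Il7r (10.20 in resting Naïve and 10.18 in resting Th2 cells) and Itgb7 (10.35 and 10.41) did not pass the test. In KO cells 1 rose and 2 fell with Th2 culture.

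**Figure D4:**
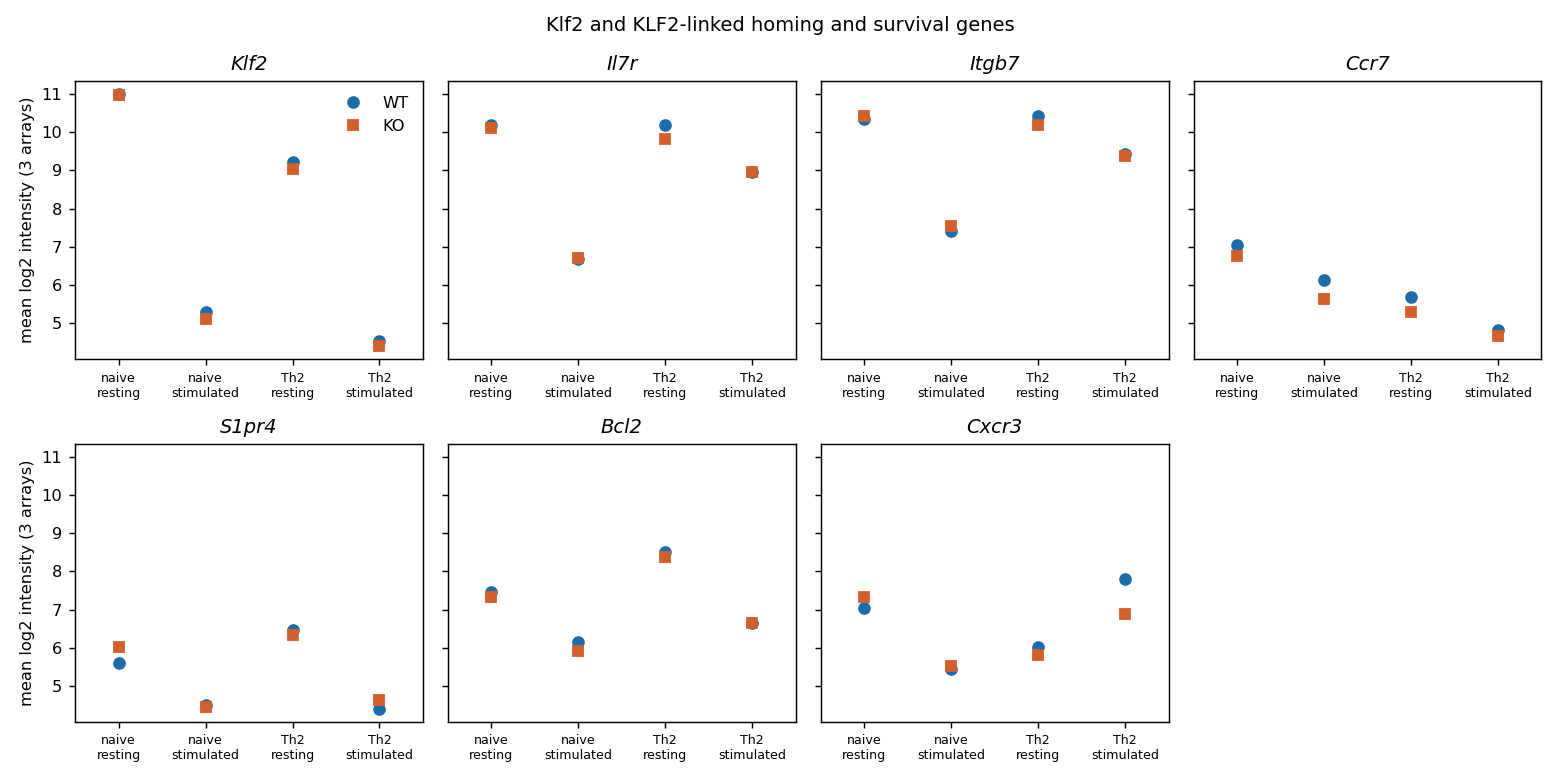
Mean normalized log2 intensity over 3 arrays (y axis) of Klf2 and 6 homing and survival genes by cell state (x axis), WT circles and KO squares. From resting Naïve to resting Th2 cells Klf2 goes from 11.00 to 9.21 in WT, while Il7r goes from 10.20 to 10.18.

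The rest of the KLF and SP family was mostly dim. Of 19 listed genes 18 were on the array and 10 were tested, and 2 fell with stimulation of WT Naïve cells, 3 fell with Th2 culture and 3 rose with stimulation of Th2 cells, of which the first count lies at the share of all probes. In KO cells 1 fell, 2 fell and 2 rose. Klf9, a glucocorticoid-induced member, went with the others in the first 2 comparisons (-1.08 and -1.84) and against them in the third, where it rose by 1.65 (limma adjusted p = 8.67e-05). Its WT means were 7.81 and 6.73 in Naïve cells at rest and after stimulation, and 5.97 and 7.62 in Th2 cells. Sp4 fell in the first 2 comparisons (-1.05 and -0.90), and Klf5, a proliferation factor of epithelia, rose by 0.72 on stimulation of Th2 cells to a WT mean of 5.32.

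Of the regulators of KLF2 and KLF4 transcription, 9 of 12 were tested. Map3k3, the MEKK3 kinase at the head of the ERK5 pathway that drives KLF2, fell in all 3 comparisons in WT (-1.96 with stimulation of Naïve cells, -1.54 with Th2 culture and -1.44 with stimulation of Th2 cells). Map2k5, the MEK5 kinase below it, fell by 1.33 with stimulation of Th2 cells. Mef2a, a target of ERK5, fell with stimulation of Naïve cells (-0.98) and Th2 culture (-1.01), and Mef2c fell by 2.37 with Th2 culture. Nfkb1 rose by 0.85 in Naïve and by 1.68 in Th2 cells, and Rela by 1.50 in Th2 cells. In total 1 rose and 2 fell with stimulation of WT Naïve cells, 2 rose and 2 fell with stimulation of Th2 cells, and 3 fell with Th2 culture. In KO cells the counts were 1 and 4, 2 and 2, and 1 and 3. With 9 genes these counts of both stimulations in WT lie near the shares of all probes. Foxo1, which activates Klf2 in T cells, had WT means of 7.92 in resting Naïve, 7.36 in stimulated Naïve, 7.69 in resting Th2 and 7.08 in stimulated Th2 cells and was not called in WT, but it fell by 0.79 with stimulation of KO Naïve cells (limma adjusted p = 0.0100). The test of that difference between genotypes gave -0.23 for Foxo1 (adjusted p = 1.00).

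Partners and effectors of the KLF proteins went both ways. Of 9 tested cofactors 3 rose and 3 fell with stimulation of WT Naïve cells, led by Hdac2 (1.46), Wdr5 (1.18) and the acetyltransferase gene Ep300 (-1.08), and 2 rose and 4 fell with stimulation of WT Th2 cells, where Ep300 fell by 1.55. In KO cells 3 rose and 2 fell, and 1 rose and 1 fell. Of 6 ubiquitin ligases that act on KLF proteins 1 rose (Fbxw7, by 0.70 and 0.67) and 1 fell (Smurf2, -1.22 and -0.64) in each stimulation of WT cells, while in KO cells 2 fell with stimulation of Naïve and 0 with stimulation of Th2 cells (limma). Of 6 genes of the TGF-beta pathway 4 fell and 1 rose with stimulation of WT Naïve cells, and 4 fell and 0 rose in KO cells. The type I receptor gene Tgfbr1 (-1.02) and Smad4 (-0.98) were among those that fell in WT. Tgfbr2, the type II receptor, fell by 2.33 there, and also with Th2 culture (-0.95) and with stimulation of Th2 cells (-0.83). Of 7 other named targets 4 fell and 2 rose with stimulation of Naïve cells in WT, and 4 fell and 2 rose in KO cells. Ccnd1, the gene of cyclin D1, fell in WT with stimulation of Naïve cells (-3.18, detected on 2 of 3 arrays after it) and with Th2 culture (-3.41, detected on 1 of 3). Cdkn1b, the cell cycle inhibitor p27, fell with stimulation of Naïve (-3.05) and of Th2 cells (-2.08), and Cdkn1a, the inhibitor p21, rose by 3.01 with Th2 culture. Bcl2l1, a survival gene, rose by 2.10 and 1.88 with the stimulations, and Myc, a transcription factor of cell growth, rose by 1.42 and 2.13.

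Across the 24 arrays the genes most alike in pattern, as a description, were Acss1 for Klf2 (Pearson r = 0.992), Txnip (0.987) and Arhgap45 (0.983). For Klf3 these were Pip4k2a (0.983), Cyp4v3 (0.973) and Ppp1r13b (0.973), and for Klf4 Tbc1d4 (0.989), Clu (0.986) and H2ac18 (0.984). For Klf6 they were Abcg1 (0.977), Clk4 (0.973) and Sptbn1 (0.970), for Klf7 Rgl2 (0.966), Cytip (0.958) and Wbp2 (0.957), and for Klf13 Gimap6 (0.977), Kat6b (0.963) and H1f2 (0.962). Among themselves the members without Klf10 correlated between 0.715 (Klf2 and Klf4) and 0.937 (Klf3 and Klf7), and Klf10 with none above 0.297. The arrays share 8 group means and the normalization, so these values mostly follow the differences between states.

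No KLF gene was called between KO and WT cells. None of the 10 probes passed an adjusted p of 0.05 (limma) in any state, compared with 0.105% of all probes in resting Naïve, 0.0211% in stimulated Naïve, 0.0281% in resting Th2 and 0.0281% in stimulated Th2 cells. None met the criteria of the methods as carried over to this fit either, which 0.681%, 0.112%, 0.0842% and 0.0913% of all probes met. With backgrounds this small, a count of 0 among 10 probes says little about the KLF genes. At an unadjusted p below 0.05 there was 1 probe in resting Naïve and 1 in resting Th2 cells, and 0 in the stimulated states. Of all 14246 probes, 973 had such a p in resting Naïve and 489 in resting Th2 cells. In stimulated Naïve cells 321 did, and in stimulated Th2 cells 397. Against these shares, 1 probe among 10 does not set the KLF genes apart from all probes. The test of whether a state difference differed between genotypes called no probe for stimulation of Naïve cells (0.00702% of all probes), stimulation of Th2 cells (0%) or Th2 culture (0.00702%), and 0 of the 10 had an unadjusted p below 0.05.

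Klf4 was the probe in resting Naïve cells. Its KO arrays (7.02, 7.33 and 6.19) were 0.58 above its WT arrays (6.68, 6.63 and 5.49) on the log2 scale, and the groups overlapped (95% interval 0.06 to 1.10, limma adjusted p = 0.672). The other Klf4 probes gave -0.02 and 0.18. On the brightest probe the difference was 0.19 without WT replicate C and 0.91 without KO replicate C. Each KO array was higher than the WT array of its letter on the brightest probe. The myeloid sums of the 3 letters were 2906, 2586 and 11086 in WT and 3790, 5064 and 6055 in KO cells, and their part in the difference was not tested.

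Klf3 was the probe in resting Th2 cells, where 5.05, 6.01 and 5.28 in KO and 6.19, 5.87 and 6.29 in WT cells gave a difference of -0.67 (95% interval -1.19 to -0.16, limma adjusted p = 1.00). The arrays of the 2 genotypes overlapped. In stimulated Naïve cells the Klf3 difference was -0.46 (-0.97 to 0.06) and in resting Naïve cells -0.07 (-0.59 to 0.44). For Klf2 the differences were -0.04 (-0.47 to 0.40) in resting Naïve, -0.18 (-0.62 to 0.25) in stimulated Naïve and -0.17 (-0.61 to 0.26) in resting Th2 cells. A change of Klf2 beyond 0.61 in either direction lay outside the interval in both kinds of resting cells. In stimulated Naïve cells Klf2 was dim (means of 5.29 in WT and 5.11 in KO). The scale understates changes there, so that the interval does not bound the change of the RNA. For Klf13 the difference was -0.24 (-0.63 to 0.14) in resting Naïve cells. It was -0.01, -0.22 and -0.22 in the other states. Over the 23 gene and state pairs in which a gene was detected, the differences lay between -0.67 and 0.58.

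**Figure D5:**
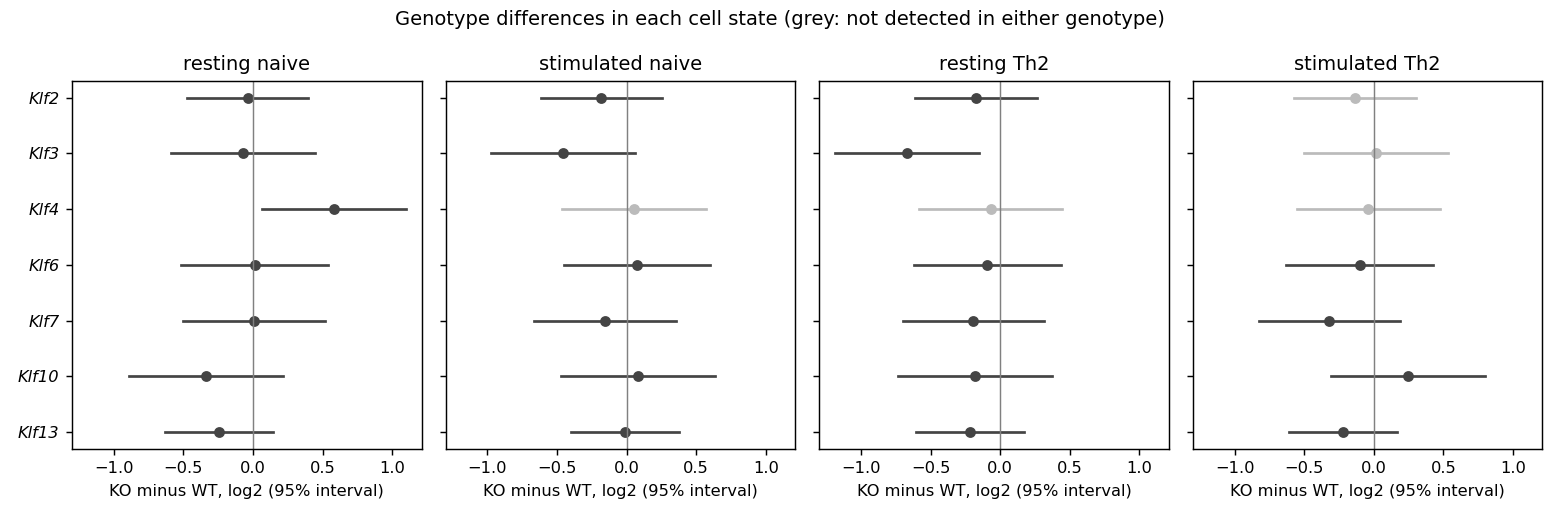
KO minus WT log2 difference (x axis, point) with its 95% interval (line) for the brightest probe of each KLF gene in the 4 cell states. Grey marks genes detected in neither genotype. The intervals for Klf4 in resting Naïve cells and Klf3 in resting Th2 cells do not include 0, and neither passed the adjusted test.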

How the data were processed

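For each probe and array the authors deposited the average bead intensity from GenomeStudio 1.6.0 (per the labels' processing notes), not normalized and with its background left in, and for each of these intensities a detection p-value set against negative controls. The genome build of the probe annotation is not given in the sources used here. The authors' Z-score values were not used. Background was inferred from the detection p-values, and intensities were log2 transformed with an offset of 16 and quantile normalized (neqc, limma 3.58.1, R 4.3.3). Of 25697 probes, the 14246 detected (p up to 0.02) somewhere among the arrays, on 1 or more, were fitted with 8 group means (lmFit, eBayes, 16 residual degrees of freedom). Benjamini-Hochberg adjusted p-values below 0.05 were called. Genotype calls were also made by the methods' 4 criteria (Z-ratio beyond 1.5, FDR below 0.3, p below 0.05, mean signal above 0) on this fit. The fit was tested on simulated data.

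Between 8047 and 10689 probes were detected per array, and 3 arrays per group limit the precision. The study describes 3 pairs of WT and KO mice, while the labels tie no letter to a mouse, so p-values measure the spread between these samples. Letters were read as pairs of WT and KO, since the methods describe pairs of RNA and deviations from the group means correlated at 0.301 for A, 0.136 for B and 0.516 for C. The unpaired fit is reported, with the letter as a block common to all states as an alternative. No fit paired WT and KO within a state. The members and gene lists were chosen with earlier results of these data known. A gene is described by its brightest probe, the other probes being given beside it, and from each list 2 to 4 genes among those with the largest WT differences in each comparison were named, to which Foxo1 was added after its values were seen. The genes most alike were the 3 with the highest Pearson r over the 24 arrays. A gene of the homing list and the genes most like Klf10 are not reported here. Alternatives were another normalization, offset and filter, the mean over probes, fewer arrays and leaving out each array.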

Additional observations from a re-analysis of the deposited data

Results flagged for a closer look

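The state difference itself differed between stimulation of Th2 cells and stimulation of Naïve cells in WT for 4 genes, each tested as a difference of differences in limma. The value was 1.03 (SE 0.30, adjusted p = 0.0129) for Klf2, 2.17 (SE 0.35, adjusted p = 9.62e-05) for Klf4, 1.74 (SE 0.36, adjusted p = 0.00106) for Klf6 and 2.15 (SE 0.26, adjusted p = 3.56e-06) for Klf13, on the log2 scale. For Klf6 and Klf13 the fall was smaller in Th2 cells. Klf2 was at the floor in stimulated Th2 cells and Klf4 was undetected in both Th2 states, so that for these 2 genes the value is set by the floor. Their p-values are no evidence of a difference between the stimulations. With 3 arrays per group no test for a single array far from the others was made.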

How the results depend on the processing

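Counted over all 10 probes, those of Klf4 included, the count of 9 lower with stimulation of Naïve cells and with Th2 culture lay between 8 and 10 under the alternatives tried, in WT and KO cells. The Klf4 probes in these counts were fixed as lower by the filter. The count of 5 lower with stimulation of Th2 cells was 3 in WT under Z-score normalization, and 3 to 5 in WT and 3 to 5 in KO cells when an array was left out. The probes lost were those of Klf6 and Klf13. Z-score normalization gave Klf6 -0.72 in WT (adjusted p = 0.13) and -0.70 in KO cells, and Klf13 -0.45 in WT (adjusted p = 0.0563). Without a detection filter the Klf13 adjusted p was 0.0605 in WT and 0.0604 in KO cells, since more probes were tested. With an offset of 50 the Klf3 difference between the stimulations was 0.83 (adjusted p = 0.00934), and the cause was not tested. Klf3 was undetected in stimulated Th2 cells, so that this p-value is no evidence of a difference between the stimulations. Klf10 ranged from -0.67 to 0.048 with stimulation of WT Naïve cells and from -0.53 to 0.19 with Th2 culture when an array was left out. Of the 564 recomputed differences of single genes between states, 536 kept direction and call, 24 fell short of the threshold, 2 passed it and 2 changed sign. The replicate block fits 1 effect per letter over all 24 arrays and does not pair WT and KO within a state. With it 9 probes were lower with Naïve stimulation, 5 with Th2 stimulation and 9 with Th2 culture, in WT and in KO cells. The block changed no other call, and the genotype comparisons gave 0 called probes under each alternative, the carried-over criteria of the methods included. The slide as a block was not run, since the table gives no slides. Klf2 and Klf3 in stimulated Th2 cells and Klf4 outside resting Naïve cells are limited by signal over background.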
